A study of Mus musculus with 30 samples.

Results

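The 9 genes described here mark B cells and the antibody-secreting plasma cells that B cells become: Cd79a, Cd79b, Ms4a1, Cd22, Pax5, Pou2af1, Jchain, Mzb1 and Tnfrsf17. They were taken by name as a fixed list, matched through their Ensembl gene identifiers to mouse symbols, and all 9 were found among the 50686 genes of the count files. Their transcripts were counted in 30 thyroid libraries of C57BL/6 mice, which fall into 10 groups of 3. In 8 groups, FAD4T or wild-type mice, male or female, were sampled at 2 or 8 months of age. The other groups are wild-type males of 18 months and a further set of wild-type males of 2 months, which carry the title numbers 4 to 6. The labels do not say what FAD4T stands for, which allele these mice carry or in which cells it acts, and no other treatment is named. The design text counts 3 mice per group and does not mention litters or dissection days, so the tests below rest on the spread among single mice.

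B cells sense antigen through an antibody molecule held at the cell surface, which passes its signal inward through the paired proteins Cd79a and Cd79b. Ms4a1 (CD20) and Cd22 are surface proteins of mature B cells, Cd22 being a brake on that signal, and Pax5 is the transcription factor that keeps B cell identity and is switched off in plasma cells. Pou2af1 is a B cell coactivator that works with octamer-binding factors, Jchain joins IgM and IgA into polymers, Mzb1 is a chaperone of antibody assembly in the endoplasmic reticulum, and Tnfrsf17 (BCMA) is a plasma cell receptor for survival signals. A healthy thyroid holds few lymphocytes, while an inflamed one can gather B cells and plasma cells.

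In GRCm38 coordinates of the count files, Cd79a (ENSMUSG00000003379) lies on chromosome 7 from 24897381 to 24902197 and Cd22 (ENSMUSG00000030577) on the same chromosome from 30865402 to 30880342. Cd79b (ENSMUSG00000040592) lies on chromosome 11 from 106311341 to 106314762, and Ms4a1 (ENSMUSG00000024673) on chromosome 19 from 11249675 to 11266241. Pax5 (ENSMUSG00000014030) lies on chromosome 4 from 44524757 to 44710487, and Pou2af1 (ENSMUSG00000032053) on chromosome 9 from 51213708 to 51240080. Jchain (ENSMUSG00000067149) lies on chromosome 5 from 88519809 to 88527891, and Mzb1 (ENSMUSG00000024353) on chromosome 18 from 35647266 to 35649367. Tnfrsf17 (ENSMUSG00000022496) lies on chromosome 16 from 11313812 to 11320074.

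Every value is a sum over the exons of a gene. Reads were counted without regard to strand, and 9.5% of the exon bases of Cd22 and 8.6% of those of Pax5 are shared with genes on the opposite strand, so their few counts may include reads of those genes. The other 7 members share 0 exon bases with another gene.

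The upstream sequences of Jchain and Pou2af1 are shown for 2 reasons. Jchain had the widest range of the 9 in counts scaled to depth but not divided by exon length. Pou2af1 encodes the partner of the factors that bind the octamer motif. Each is the 250 bases before the gene's start in RefSeq (GRCm38.p6), read 5′ to 3′ on the gene's strand, chr5:88527898-88528147 on the minus strand for Jchain and chr9:51213440-51213689 on the plus strand for Pou2af1. Capitals mark the octamer core TGCAAAT.
Jchain: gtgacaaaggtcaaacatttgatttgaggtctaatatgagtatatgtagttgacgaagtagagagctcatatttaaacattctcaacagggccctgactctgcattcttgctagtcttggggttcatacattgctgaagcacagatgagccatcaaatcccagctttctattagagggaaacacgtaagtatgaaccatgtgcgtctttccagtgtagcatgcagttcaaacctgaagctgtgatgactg
Pou2af1: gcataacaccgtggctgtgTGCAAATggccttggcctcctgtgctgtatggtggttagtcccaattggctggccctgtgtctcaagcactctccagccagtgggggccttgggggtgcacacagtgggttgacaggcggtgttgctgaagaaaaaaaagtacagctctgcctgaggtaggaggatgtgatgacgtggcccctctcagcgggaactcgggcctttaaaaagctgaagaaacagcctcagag
RefSeq promoter entries matched 6 of the 9 members, namely Cd79a, Cd22, Pax5, Jchain, Pou2af1 and Tnfrsf17. Both strands of the 250-base windows were searched for the octamer ATGCAAAT, for its core TGCAAAT, which lies within the full octamer, and for the ETS motif AGGAAGT that PU.1-type factors bind. Pou2af1 held 1 core, which starts 231 bases before the gene's start, and Cd79a held 1 AGGAAGT. No other match was found in the 6 windows, which says only that these letters are not there. Of 32851 promoter windows of the same length, 1.6% held ATGCAAAT, 3.56% held TGCAAAT and 7.69% held AGGAAGT.

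Library totals were 14083958 to 20256049 counts assigned to genes. Levels below are CPM, counts scaled to library depth with TMM factors over all 30 libraries, and are divided by exon length in kilobases where genes are compared with each other. A gene is said to have risen or fallen where edgeR's quasi-likelihood test gave a Benjamini-Hochberg adjusted p under 0.05 over all genes tested. The thyroid itself was plain in every library, since the thyroglobulin gene Tg alone stood at 37082 to 303047 CPM. RNA of other cells varied between libraries of 1 group. In 5 FAD4T libraries (replicates 2 and 3 of the 2-month males, 1 and 2 of the 2-month females and 1 of the 8-month males), the 7 thymocyte genes summed to 80.1 to 280 CPM, against 11.3 to 52.6 CPM in the 25 others. The 4 markers of lymph node venules (Glycam1, Chst4, Madcam1 and Ccl21a) summed to at most 0.629 CPM in any library, which was Madcam1 alone. Ccl21a had 0 counts in all 30 libraries, and whether lymph node tissue was present was not tested.

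Only Mzb1 and Cd79b were measured at 1 CPM or more in all 30 libraries. Per kilobase of exon, the median over the 30 libraries was 9.35 CPM for Mzb1, 8.01 CPM for Cd79b and 0.869 CPM for Jchain. Below them came Cd79a with 0.453 CPM per kilobase, Pou2af1 with 0.101, Cd22 with 0.0730, Tnfrsf17 with 0.0658, Ms4a1 with 0.0358 and Pax5 with 0.0173. The last 6 of this order rested on few reads.

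Among them Cd79a reached 44 counts in its richest library, Cd22 32, Pou2af1 30, Ms4a1 23, Pax5 14 and Tnfrsf17 6. Tnfrsf17, the BCMA gene, had 0 counts in 14 libraries, Pax5 in 4, and Ms4a1 and Pou2af1 in 2 each. Pax5 and Tnfrsf17 therefore missed the count filter in every comparison of all libraries, leaving 7 members tested in the FAD4T set and 5 in the ageing comparison, where Ms4a1 and Pou2af1 missed it too. In edgeR fits with no filter on low counts, neither Pax5 nor Tnfrsf17 was called in any of the 15 comparisons.

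**Figure D1:**
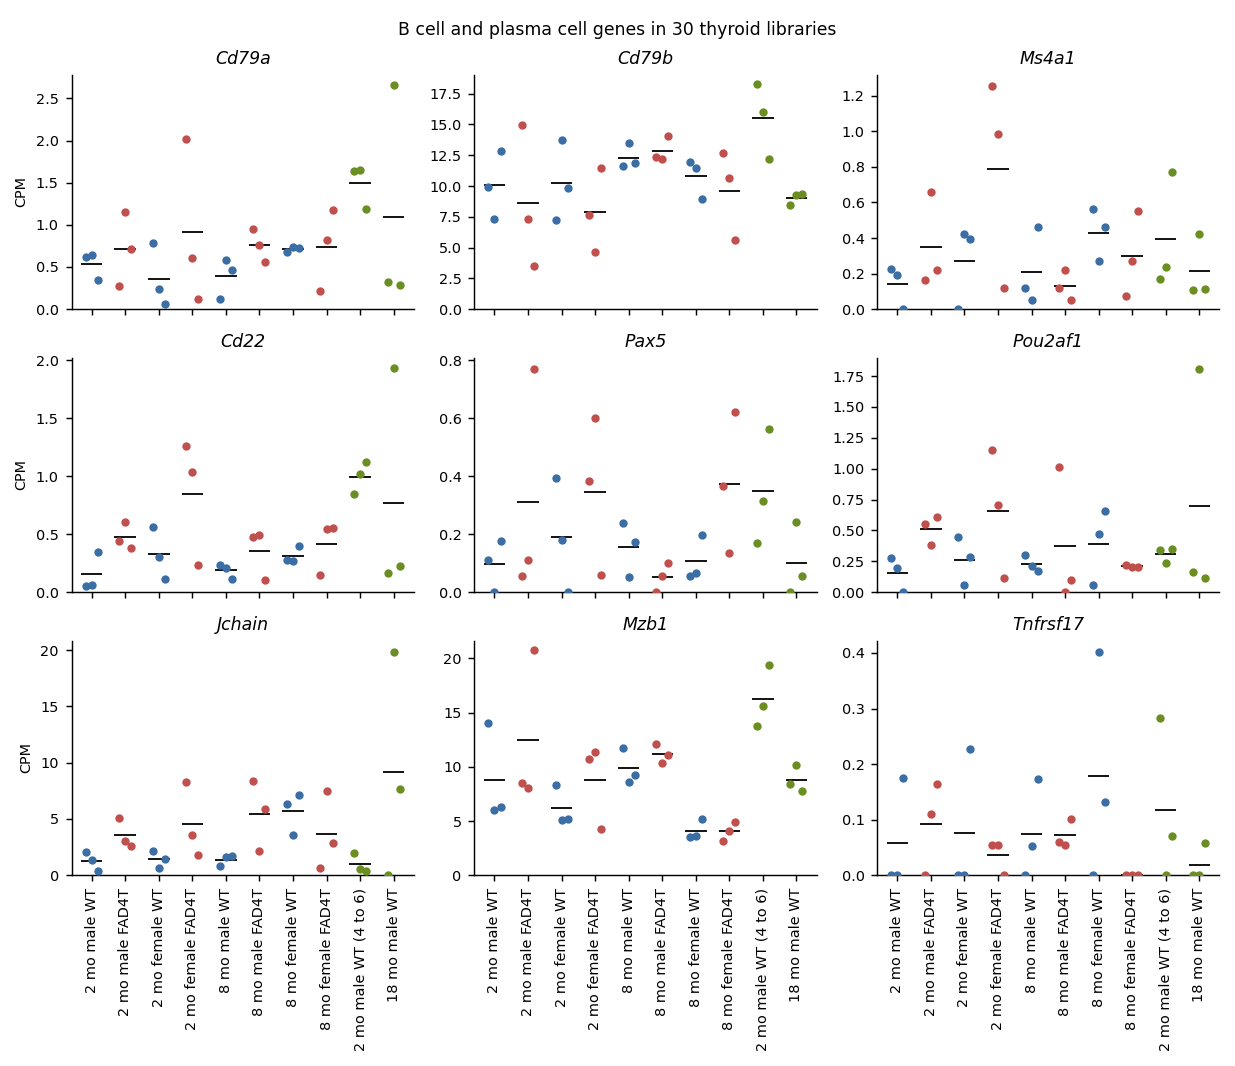
Each panel plots 1 member, with a point per library (CPM, linear axis from 0, a scale of its own) in the 10 groups of 3 and a line at the group mean; blue is wild type, red FAD4T and green the ageing set. Mzb1 and Cd79b stand above 3 CPM everywhere, Jchain runs from 0.0541 to 19.8 CPM, and Tnfrsf17 stays below 0.5 CPM.

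The paired chains of the B cell receptor were not measured at like levels. Per kilobase, Cd79a stood at 0.564% to 28.1% of Cd79b, with a median of 6.23% over the 30 libraries, and exceeded it in 0 of them. Of the plasma cell members, Jchain stood at 0.232% to 70.0% of Mzb1 per kilobase, with a median of 9.82%. Cd79b also had a pattern unlike most of the others. Pearson's r of log2(CPM + 1) over the 30 libraries between Cd79b and each of the 7 members other than Mzb1 was -0.53 to 0.07, with a median of -0.17. Mzb1 with the same 7 gave -0.06 to 0.39, with a median of 0.31, close to the median of 0.35 among the 7 themselves. In the 25 libraries without the 5 rich in thymocyte transcripts, Cd79b with the 7 gave -0.18 to 0.27 (median -0.16) and Mzb1 with the 7 a median of 0.16. Cd79b with Mzb1 gave -0.09 over 30 libraries and 0.29 over 25, so its sign rested on those libraries.

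Among the 7 the coefficients ran from -0.08 to 0.81, and many rest on sparse counts, so that the lower ones are no finding. The highest joined Cd79a and Cd22 (r = 0.81, or 0.82 in the 25 libraries without the 5 rich in thymocyte transcripts). Jchain followed Pou2af1 at 0.60, while Tnfrsf17 stayed between -0.08 and 0.07 with every other member. Cd79b correlated with Tg at 0.60 and with Rag1, the recombinase of immature lymphocytes, at -0.60. Without the 5 libraries these values were 0.15 and -0.39. Rag1 with Pou2af1 gave 0.64 over 30 libraries and 0.79 over 25, and with Jchain 0.38 and 0.51. With Ms4a1, Pax5, Mzb1 and Tnfrsf17 the coefficient of Rag1 was lower over the 25 libraries, going from 0.50 to 0.08 for Ms4a1. These coefficients describe libraries that share tissue composition and depth, and no test was made on them.

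**Figure D2:**
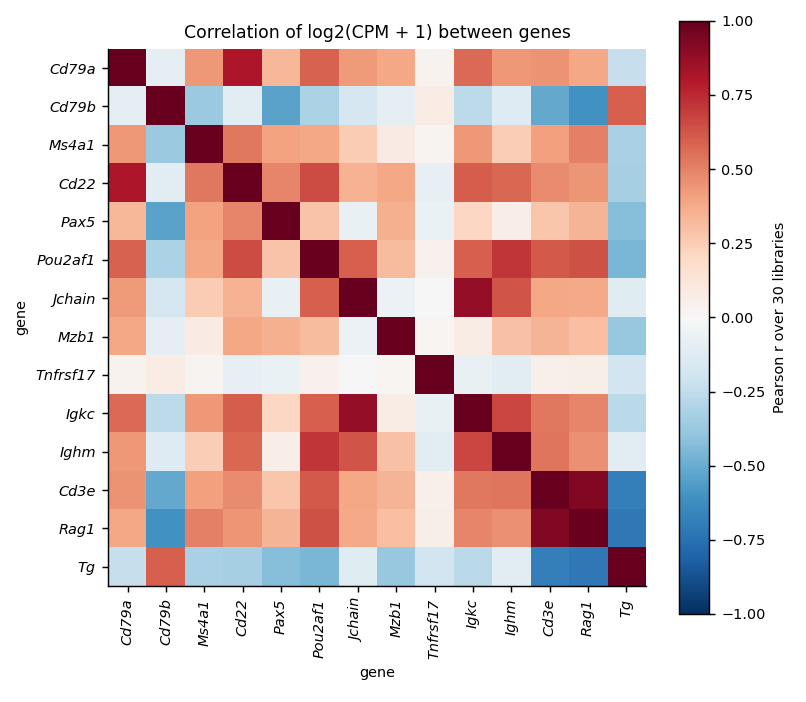
The grid gives Pearson's r of log2(CPM + 1) over 30 libraries for each pair among the 9 members, the immunoglobulin genes Igkc and Ighm, the lymphocyte genes Cd3e and Rag1, and Tg, from blue at -1 to red at 1. Cd79a and Cd22 share a dark red cell (0.81), Jchain is reddest with Igkc (0.88), and the Cd79b row is mostly blue or pale.

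Among 13853 genes of mean CPM 1 or more, those most like the mean of the 9 members were Igkc (r = 0.78 over 30 libraries), Dennd4b (0.71), Ighm (0.70), Coro2a (0.69) and Trim7 (0.69). Igkc and Ighm encode the constant parts of the kappa light chain and of IgM. Taken alone, Jchain was most like Igkc (0.88), Pou2af1 most like Dennd4b (0.78), Cd79b most like Nudt1 (0.85) and Mzb1 most like Irf2bp2 (0.86). Cd79a and Cd22 were both most like the haemoglobin gene Hba-a2 of red blood cells, at 0.69 and 0.75. Ms4a1 was nearest to Msc (0.68), Pax5 to Pkn3 (0.70) and Tnfrsf17 to Myl2 (0.57).

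Whether the FAD4T genotype goes with more B cell or plasma cell RNA was asked in each sex at each age. No member rose or fell in any of the 4 comparisons by edgeR's quasi-likelihood test, nor by DESeq2. That test called 0% of 18493 genes in males of 2 months, 0% in females of 2 months, 0% in males of 8 months and 0.0216% in females of 8 months, in either direction, all of the latter falling. At an unadjusted p under 0.05 it gave 2679, 3087, 335 and 862 genes, and DESeq2 called 102, 293, 0 and 77. These counts rested on single libraries, since edgeR called 3001 genes in females of 2 months without FAD4T replicate 3, 130 and 100 without wild-type replicate 3 or 2, and 36 in males of 2 months without FAD4T replicate 1, with 0 members among them. Differences in bulk tissue cannot tell fewer cells of a type from less RNA per cell, here and in all comparisons below.

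Jchain was measured higher in FAD4T in 3 of the 4 comparisons. In males of 2 months it stood at 5.13, 3.02 and 2.59 CPM in FAD4T and 2.07, 1.35 and 0.350 CPM in wild type. In males of 8 months it stood at 8.35, 2.18 and 5.87 CPM in FAD4T and 0.833, 1.59 and 1.73 CPM in wild type. In both ages of males every FAD4T library lay above every wild-type one, and the log2 differences were 1.51 (SE 0.75, adjusted p = 0.345) and 1.98 (SE 0.75, adjusted p = 1).

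Females of 2 months had 8.31, 3.55 and 1.75 CPM of Jchain in FAD4T and 2.20, 0.603 and 1.47 CPM in wild type. Their groups overlapped, with a log2 difference of 1.66 (SE 0.74, adjusted p = 0.276). Females of 8 months had 0.658, 7.47 and 2.90 CPM in FAD4T and 6.35, 3.55 and 7.16 CPM in wild type, a log2 difference of -0.63 (SE 0.71, adjusted p = 1). There the lowest library was FAD4T and the groups overlapped. The difference between the sexes in this effect at 8 months was 2.61 on the log2 scale (SE 1.03, adjusted p = 1), and that between the ages in females was -2.29 (SE 1.03, adjusted p = 0.595), neither past the threshold.

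Of the B cell members, Cd22, the inhibitory receptor, was 0.441, 0.603 and 0.385 CPM in FAD4T males of 2 months and 0.0558, 0.0645 and 0.350 CPM in their wild-type controls. These groups did not overlap, although the controls held only 1, 1 and 6 counts (log2 difference 1.56, SE 0.79, adjusted p = 0.345). Pou2af1, the octamer coactivator, was 0.551, 0.384 and 0.605 CPM against 0.279, 0.193 and 0 CPM, again without overlap (log2 difference 1.67, SE 1.08, adjusted p = 0.408). With Jchain, 3 of the 7 tested members lay wholly higher in FAD4T males of 2 months, where 6.31% of all genes did, and 0 lay wholly lower (5.82% of all genes). In females of 2 months 0 of 7 did (6% of all genes, and 3.93% wholly lower), in males of 8 months 1 of 7, Jchain (5.22%), and in females of 8 months 0 of 7 (5.96%). For Cd22 the separation in the younger males depended on the controls, which were mice 1 to 3. Young males of the ageing set had 0.848 to 1.12 CPM of Cd22, above every FAD4T male of 2 months. Their Jchain (0.351 to 1.98 CPM) and Pou2af1 (0.235 to 0.351 CPM) lay below every FAD4T male of 2 months. FAD4T was not tested against the ageing set.

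In FAD4T females of 2 months the high values sat in replicates 1 and 2. Ms4a1, the CD20 gene, was 1.26, 0.983 and 0.117 CPM there against 0, 0.422 and 0.396 CPM in wild type, and Cd79a was 2.02, 0.601 and 0.117 CPM against 0.788, 0.241 and 0.0566 CPM. Replicate 3 was lowest in FAD4T for both genes, so both overlapped the controls. The median log2 difference over the 7 tested members was 1.29 in males and 1.31 in females of 2 months, 0.66 in males and -0.16 in females of 8 months. The medians over all genes in those comparisons were 0.02, -0.02, 0.01 and -0.01.

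The T cell and thymocyte genes were also high in some FAD4T libraries of 2 months. In FAD4T males of that age Jchain was highest in replicate 1 (5.13 CPM), which was not among the 5 thymocyte-rich libraries. Cd79a went the other way, at 1.81% of Cd79b per kilobase in replicate 1 and 15.5% and 20.3% in the thymocyte-rich replicates 2 and 3. In FAD4T females of 2 months the high values of Ms4a1 and Cd79a sat in replicates 1 and 2, both thymocyte-rich. The 7 T cell genes (Cd3e, Cd3d, Cd3g, Trac, Cd2, Lck and Cd5) summed to 15.8 to 242 CPM in FAD4T males of 2 months and 9.86 to 14.9 CPM in their controls, and to 10.1 to 155 against 8.60 to 27.3 CPM in females. Their part in the member values was not tested. With the 5 thymocyte-rich libraries left out, so that 1 FAD4T library remained in each sex at 2 months and was assumed to vary like the other groups, Jchain differed by 2.02 in males and 0.29 in females of 2 months and by 1.54 in males of 8 months on the log2 scale (adjusted p = 1 in each). Cd22 then differed by 1.44 in males and -0.47 in females of 2 months, and Cd79a by -0.94 and -1.58. The sign of Cd79a thus turned in both sexes and that of Cd22 in females. Hba-a2, a haemoglobin gene, also lay wholly higher in FAD4T males of 2 months, at a mean of 14.4 against 4.49 CPM (adjusted p = 0.343), and its part in the member values was not tested either.

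Averaged over both sexes and ages, the largest member differences were Jchain with 1.13 (SE 0.37, adjusted p = 0.212) and Cd22 with 1.05 (SE 0.38, adjusted p = 0.238) on the log2 scale. Mean Jchain was 4.31 CPM in the FAD4T groups and 2.44 CPM in the wild-type groups. In this average edgeR called 0% of all genes, with 2855 at an unadjusted p under 0.05, and DESeq2 called 313 genes and 0 members. Jchain passed the threshold only without replicate 3 of the 2-month FAD4T females (1.22, adjusted p = 0.0485), where 1300 genes were called in all. Without replicate 1 of the 2-month FAD4T males 176 genes and 0 members were called, and without the 5 thymocyte-rich libraries Jchain was 0.81 (adjusted p = 1).

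**Figure D3:**
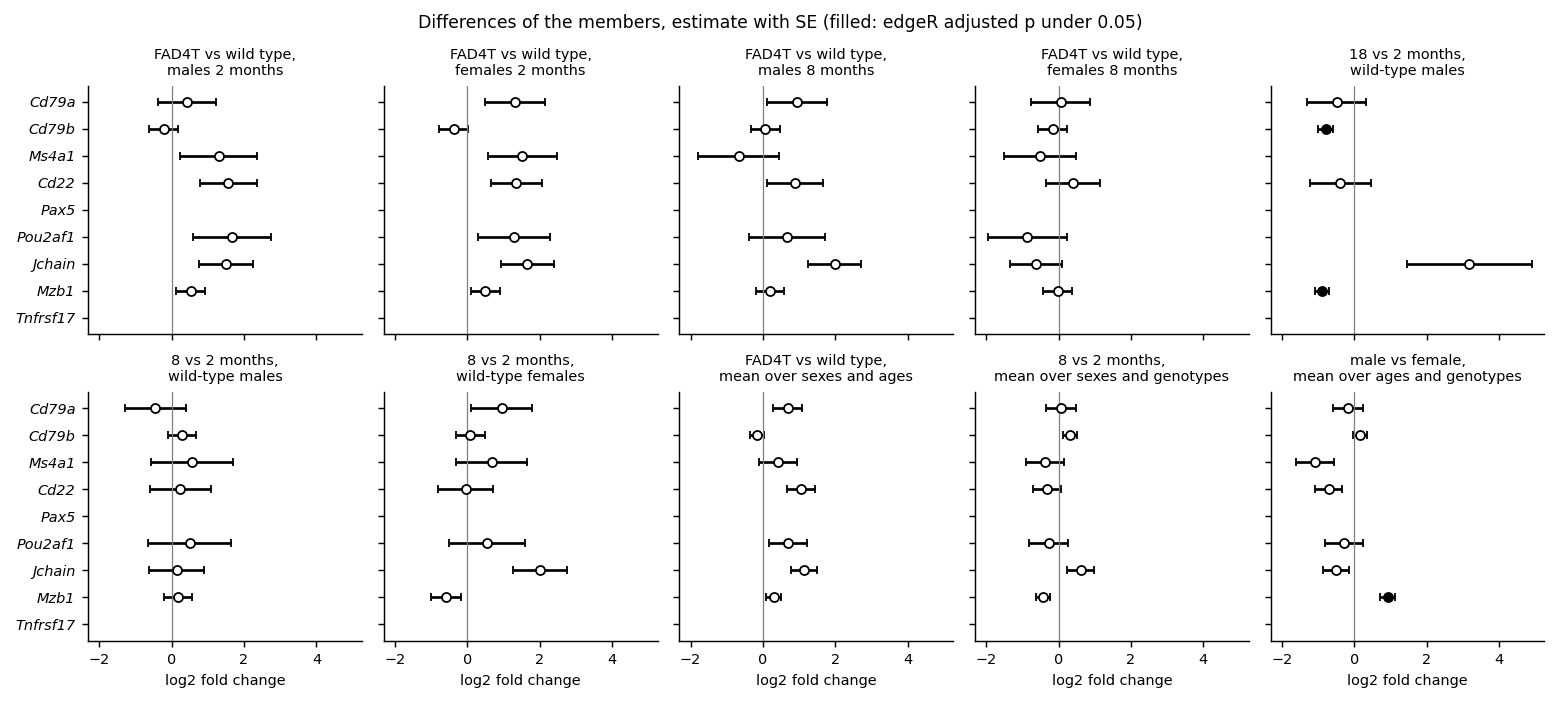
Points give the log2 fold change of each tested member from edgeR with its standard error as a bar, in 10 comparisons; filled points passed an adjusted p of 0.05, and members without a point missed the count filter. Filled points are Cd79b and Mzb1 at 18 against 2 months and Mzb1 in males against females.

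Immunoglobulin transcripts, which plasma cells make in large amounts and Jchain's protein helps to polymerise, were the nearest partners of Jchain. In males of 2 months Igkc stood at 15.4, 10.1 and 8.86 CPM in FAD4T and 1.01, 0.387 and 0.292 CPM in wild type (log2 difference 4.32, SE 1.15, adjusted p = 0.343). In males of 8 months it stood at 18.0, 7.46 and 12.7 CPM against 1.55, 2.96 and 1.73 CPM (2.61, adjusted p = 1). Neither pair of groups overlapped, as for Jchain, and neither passed the threshold.

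In females of 2 months Igkc was 55.5, 39.9 and 3.92 CPM in FAD4T and 4.67, 0.724 and 0.566 CPM in wild type (4.04, SE 1.05, adjusted p = 0.153), with FAD4T replicate 3 inside the range of the controls. In females of 8 months it was 0.951, 19.8 and 20.3 CPM against 28.0, 7.03 and 11.9 CPM, and wild type was not lower. Ighm did not overlap at 2 months, with means of 35.0 against 9.94 CPM in males and 44.2 against 11.0 CPM in females (adjusted p = 0.343 and 0.214). The male controls here were mice 1 to 3. Young males of the ageing set had 16.4 to 42.7 CPM of Ighm, overlapping the 26.6 to 46.5 CPM of FAD4T males. Their Igkc, at 1.61 to 7.29 CPM, lay below every FAD4T male of 2 months. FAD4T was not tested against them. Of the 12 constant region genes listed, 7 could be tested, and 0 rose or fell with FAD4T in any of the 4 comparisons.

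The ratio of Ighm to Igkc ran from 0.667 to 55.3 over the 30 libraries. It was highest in replicate 1 of the 8-month wild-type males, which had 85.6 CPM of Ighm but 1.55 CPM of Igkc and 0.833 CPM of Jchain. Over 348 variable segment genes, the summed level was 0.451 to 145 CPM, with a median of 3.79 CPM. A single segment gave a large share in several libraries. In replicate 1 of the 2-month FAD4T males, Igkv4-59 took 162 of 232 segment counts, a share of 69.8% (Wilson 95% interval 63.6% to 75.4%, which covers counting error only). The library with the most segment counts, replicate 2 of the 18-month males with 2413, had a leading share of 27.1% from Ighv3-1 (25.3% to 28.9%). Variable segments resemble each other closely, so the split of reads between them is uncertain.

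**Figure D4:**
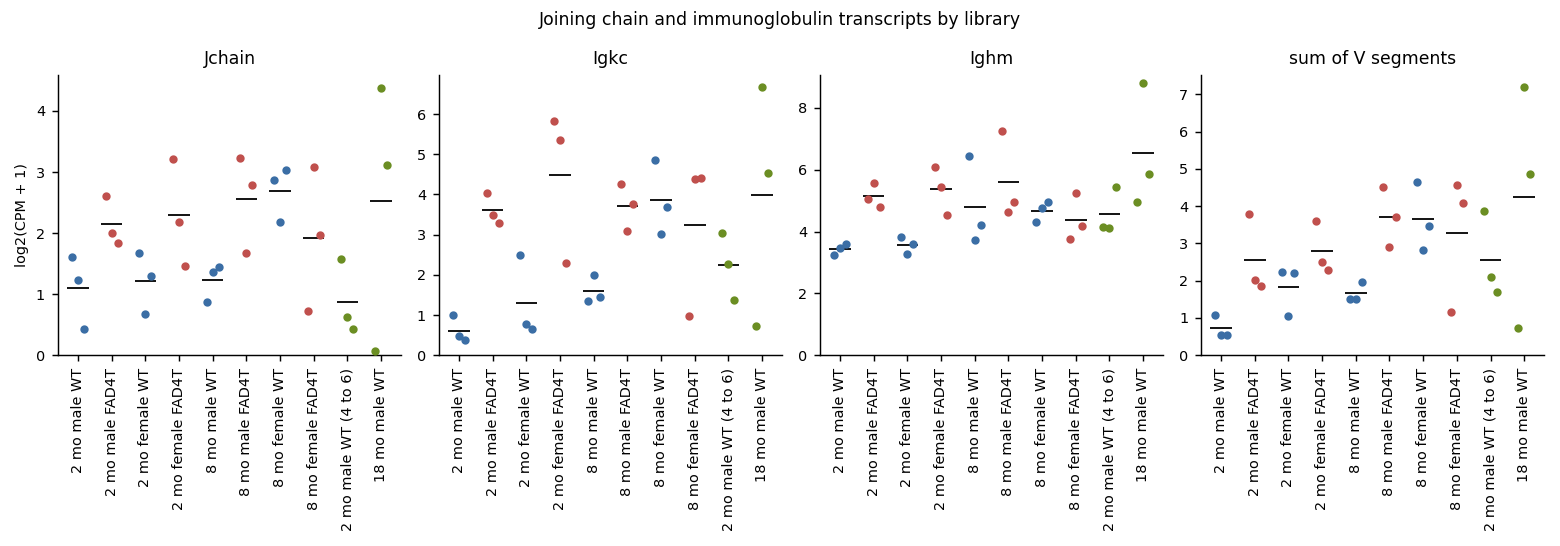
Panels plot Jchain, Igkc, Ighm and the sum of 348 variable segment genes as log2(CPM + 1), with a point per library, a line at the mean of the 3 libraries of a group, and the colours blue for wild type, red for FAD4T and green for the ageing set. In males FAD4T points of Jchain and Igkc lie above the wild-type points at both ages, and replicate 2 of the 18-month males is the highest point of every panel.

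The companion lists gave no call with FAD4T either. Of 20 other B cell genes 18 were tested, and 15 differed upward in males and 17 in females of 2 months, with median log2 differences of 0.48 and 0.62. The medians over all genes were 0.02 and -0.02. The FAD4T groups of 2 months include libraries rich in thymocyte transcripts, whose part in these counts was not tested. The 11 plasma cell genes beside the members, which include factors of protein secretion that a thyrocyte also needs, had medians of -0.33 and -0.19. In males of 2 months 3 of the 11 lay wholly lower in FAD4T (5.82% of all genes did) and 1 wholly higher (6.31%). In females 0 lay wholly lower (3.93%) and 2 wholly higher (6%). The 3 lower in males were Xbp1, Sdc1 (means of 6.55 against 9.91 CPM) and Slamf7 (2.40 against 3.65 CPM). Xbp1, a transcription factor of secretory cells, was lower in the males at 285 against 366 CPM (adjusted p = 0.379), Eaf2 was higher there at 5.69 against 3.68 CPM (adjusted p = 0.343), and Irf4 was higher in the females at 13.3 against 4.07 CPM (adjusted p = 0.153), each without overlap. Of 15 genes that attract or sustain B cells, 10 were tested and 0 were called. The chemokine gene Cxcl13 was 62.5 against 87.4 CPM in males and 68.0 against 55.3 CPM in females of 2 months. Ltb, the lymphotoxin beta gene that T cells also express, was 5.28 against 1.19 CPM in males, without overlap, and 5.75 against 1.53 CPM in females, with overlap (adjusted p = 0.343 and 0.161).

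In old wild-type males, 18 against 2 months, Cd79b and Mzb1 fell. Cd79b, the receptor chain, was 8.49, 9.29 and 9.32 CPM at 18 months and 18.3, 16.0 and 12.2 CPM at 2 months. Mzb1, the antibody chaperone, was 8.38, 10.2 and 7.77 CPM at 18 months and 13.8, 15.6 and 19.4 CPM at 2 months. For both genes every old library lay below every young one, with log2 differences of -0.79 (SE 0.20, adjusted p = 0.0143) and -0.90 (SE 0.19, adjusted p = 0.00824). So 2 of 5 tested members fell and 0 rose, where 35.9% of 16283 genes were called, 18.8% falling and 17.1% rising, and 26% of all genes lay wholly lower. The members' share called was near that background. The median over the 5 members was -0.48, and over all genes -0.01.

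These falls depended on which young mice were used. Wild-type males of 2 months numbered 1 to 3 had 14.0, 5.99 and 6.25 CPM of Mzb1 and 9.94, 7.35 and 12.9 CPM of Cd79b, within or across the range of the 18-month libraries. Against them the log2 differences were 0.012 for Mzb1 (adjusted p = 0.989) and -0.14 for Cd79b (adjusted p = 0.747), and against all 6 young males -0.50 (adjusted p = 0.371) and -0.50 (adjusted p = 0.233). Over all genes, 5840 were called with males 4 to 6, 859 with males 1 to 3 and 1417 with all 6. Without replicate 5 of the young males Cd79b was -0.73 (adjusted p = 0.0615), and in a single fit of all 30 libraries Cd79b was -0.76 (adjusted p = 0.114) and Mzb1 -0.86 (adjusted p = 0.0712).

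Jchain did not follow Mzb1. It was 0.0541, 19.8 and 7.66 CPM at 18 months and 1.98, 0.549 and 0.351 CPM at 2 months, so the old males held both the lowest and the highest of the 30 libraries (log2 difference 3.18, SE 1.73, adjusted p = 0.225). It passed the threshold without replicate 1 of the 18-month males (3.77, adjusted p = 0.0251) and in the fit of 30 libraries (3.21, adjusted p = 0.0259).

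Replicate 2 of the 18-month males was high in several members, with 2.65 CPM of Cd79a, 1.93 CPM of Cd22 and 1.81 CPM of Pou2af1. Its Mzb1 (10.2 CPM) and Cd79b lay below those of every young male numbered 4 to 6. The other old libraries had 0.324 and 0.286 CPM of Cd79a and 0.162 and 0.229 CPM of Cd22, against 1.64, 1.65 and 1.19 and 0.848, 1.02 and 1.12 CPM in the young males. With all 6 libraries the log2 differences were -0.48 for Cd79a (adjusted p = 0.677) and -0.39 for Cd22 (adjusted p = 0.753). Without replicate 2 they were -2.24 (adjusted p = 0.0247) and -2.29 (adjusted p = 0.0375), so that 4 members fell. Over all genes the full fit called 35.9%, and fits that left out 1 of the 6 libraries called 3651 to 5470 genes. Replicate 2 of the 18-month males also held 445 CPM of Ighm, 101 CPM of Igkc and 145 CPM of variable segments.

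Haemoglobin transcripts moved with Cd79a and Cd22. Hba-a2 was 39.8, 46.1 and 157 CPM in the young males numbered 4 to 6 and 1.68, 78.7 and 3.20 CPM at 18 months, against 1.47 to 22.5 CPM in the 24 libraries of the FAD4T set. The old library rich in Cd79a and Cd22 was the one rich in Hba-a2, and the part of blood in these values was not tested.

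Among 14 tested B cell genes beside the members, 2 rose and 1 fell with age, a smaller share than the 35.9% called over all genes. Ciita, the switch of MHC class II genes, rose by 1.66 and the kinase gene Blk by 1.36 on the log2 scale (adjusted p = 0.00444 and 0.0236). Vpreb3, a gene of the early B cell receptor, fell from a mean of 19.0 to 4.95 CPM (log2 difference -1.96, adjusted p = 0.00666), but young males 1 to 3 had a mean of 7.25 CPM. Of 11 plasma cell genes, Creld2, Derl3 and Txndc5 rose and Irf4 fell, to 2.84 CPM, where young males 1 to 3 had 3.33 CPM. Creld2 rose from 106 to 557 CPM and Derl3 from 60.2 to 216 CPM, both genes of the endoplasmic reticulum stress response that are not limited to plasma cells. Of 6 tested constant region genes only Ighd, which encodes IgD of naive B cells, changed, from 1.18 to 0.383 CPM (log2 difference -1.61, adjusted p = 0.0322). Cxcl13 fell from 94.1 to 49.8 CPM (log2 difference -0.94, adjusted p = 0.0439), the only call among 9 tested attracting and survival factors. The T cell genes Cd3e and Cd3g rose, by 1.74 and 1.42 on the log2 scale, and 2 of the 7 thymocyte genes could be tested, of which 0 were called. Against young males 1 to 3, 2 of 13 other B cell genes rose and 0 fell, and 2 of 11 plasma cell genes rose and 1 fell. There 0 of 3 constant region genes were called, and 1 of 9 attracting and survival factors rose and 0 fell. That fit called far fewer of all genes, as given above, so 35.9% is not the share to set beside these counts.

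Between 8 and 2 months, no member rose or fell in wild-type males or in wild-type females. edgeR called 0.692% of genes in males (0.27% fell) and 0.254% in females (0.0487% fell), with 2158 and 1581 genes at an unadjusted p under 0.05. DESeq2 called 489 and 267 genes and 0 members. In wild-type females Jchain was 6.35, 3.55 and 7.16 CPM at 8 months and 2.20, 0.603 and 1.47 CPM at 2 months, without overlap (log2 difference 2.00, SE 0.75, adjusted p = 0.379). It was the 1 member of 7 that lay wholly higher there, where 5.52% of all genes did. Igkc in the same females was 28.0, 7.03 and 11.9 CPM against 4.67, 0.724 and 0.566 CPM, also without overlap (2.97, SE 1.02, adjusted p = 0.302). In wild-type males Jchain was 0.833, 1.59 and 1.73 CPM against 2.07, 1.35 and 0.350 CPM, which overlapped (0.13, SE 0.76, adjusted p = 0.979). The difference between the sexes in this change of Jchain was -1.86 (SE 1.06, adjusted p = 0.990). No member was called in any of the 5 interactions by edgeR or by DESeq2, which called 0% of all genes in 4 of them and 0.00541% in the fifth by edgeR. Unadjusted p-values under 0.05 numbered 369 to 1520 genes in these 5, and DESeq2 called 9 to 123 genes.

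Averaged over sexes and genotypes, 8 against 2 months, 0 of 7 members were called by edgeR or DESeq2, although edgeR called 32.6% of all genes and 8325 had an unadjusted p under 0.05. Mzb1 differed by -0.43 (SE 0.20, adjusted p = 0.101), Cd79b by 0.31 (SE 0.20, adjusted p = 0.232) and Jchain by 0.61 (SE 0.36, adjusted p = 0.201) on the log2 scale. Single libraries decided whether the first pair passed, since Mzb1 was called at -0.51 without replicate 3 of the 2-month FAD4T females (adjusted p = 0.0288) and Cd79b at 0.49 without replicate 1 of the 2-month FAD4T males (adjusted p = 0.0312). Without the 5 thymocyte-rich libraries Mzb1 was -0.04 (adjusted p = 0.954) and Cd79b -0.014 (adjusted p = 0.988), and 671 genes were called in place of 6027.

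Of 18 other B cell genes tested in that average, 4 were called, a smaller share than the 32.6% over all genes. Ebf1, Vpreb3 and Cd37 fell, by 0.54, 0.57 and 0.62 on the log2 scale, and Cd74, the MHC class II invariant chain that many cells make, rose from 329 to 536 CPM. Of the 11 plasma cell genes Cd38 fell by 0.68 and Xbp1 rose by 0.38, and Ighd again fell, from 1.35 to 0.583 CPM (adjusted p = 0.0413). Among the 10 tested attracting and survival factors, the receptor genes Cxcr4 and Ccr7 fell. Trac, Cd2 and Lck of the 7 T cell genes and Siglech, Ccr9 and Bst2 of the 4 plasmacytoid dendritic cell genes fell too, where 16.8% of all genes fell. Scgb1a1 of the airway epithelium rose from a mean of 3.26 to 163 CPM. At 8 months its group means were 366 CPM in FAD4T and 255 CPM in wild-type females, but 17.2 and 12.9 CPM in the males. Foxj1 of the same list had group means of 0.594 to 2.88 CPM at 2 months and 1.20 to 1.82 CPM at 8 months. Without the 5 thymocyte-rich libraries 0 of 18 other B cell genes, 1 of 11 plasma cell genes, 0 of 10 constant region genes, 0 of 7 T cell genes and 0 of 4 plasmacytoid dendritic cell genes were called. How far these cell types share in the member values was not tested.

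Between males and females, averaged over ages and genotypes, 1 of 7 members differed. Mzb1 was higher in males, where 1.88% of all genes were called by the same test, 0.741% rising and 1.14% falling, with a log2 difference of 0.92 (SE 0.20, adjusted p = 0.0175) and group means of 10.6 against 5.79 CPM. At 8 months Mzb1 was 12.1, 10.4 and 11.1 CPM in FAD4T males and 11.8, 8.56 and 9.20 CPM in wild-type males. It was 3.15, 4.08 and 4.89 CPM in FAD4T females and 3.54, 3.62 and 5.19 CPM in wild-type females of that age. All 6 males lay above all 6 females, as for 1.38% of all genes, and the genotypes overlapped within each sex.

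At 2 months Mzb1 was 8.55, 8.01 and 20.8 CPM in FAD4T males and 14.0, 5.99 and 6.25 CPM in wild-type males, and 10.7, 11.4 and 4.27 CPM and 8.33, 5.13 and 5.21 CPM in the females. The sexes overlapped at that age. Within 2 months alone the log2 difference was 0.50 (adjusted p = 0.746) and within 8 months alone 1.35 (adjusted p = 0.0173). The difference between these effects was 0.85 (SE 0.40, adjusted p = 0.734), a contrast of the same fit in which edgeR called 0.0162% of all genes, so a difference with age was not established. Leaving out any 1 of the 24 libraries gave 0.78 or more, called each time.

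The gene next to Mzb1 differed by sex as well. Prob1 (ENSMUSG00000073600) lies on the same strand of chromosome 18 from 35650351 to 35655238, upstream of Mzb1 with 983 bases between them, and was measured at 83.8 to 274 CPM. It was higher in males by 0.61 on the log2 scale (SE 0.08, adjusted p = 9.15e-05), with means of 178 against 114 CPM, and followed Mzb1 over the 30 libraries at r = 0.55. Spata24, the next gene upstream, did not pass (0.26, adjusted p = 0.129). At 18 against 2 months the neighbours differed otherwise, since Spata24 fell by 0.76 (adjusted p = 0.00615) and Prob1 differed by 0.08 (adjusted p = 0.651). Whether reads from Prob1 transcripts enter the Mzb1 count was not tested.

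**Figure D5:**
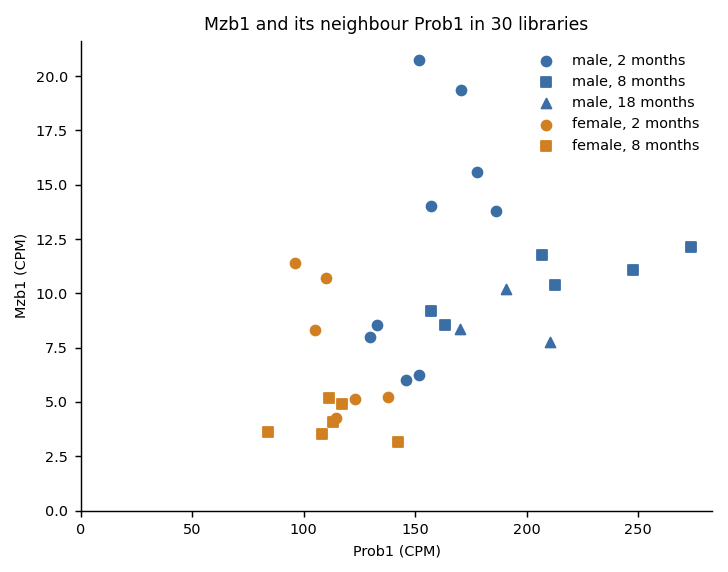
Each point is 1 of 30 libraries, with the level of Prob1 (CPM) on the horizontal axis and of Mzb1 (CPM) on the vertical axis, both from 0; blue is male, orange female, and the marker shape gives the age. At 8 months the males (squares) lie at 8.56 to 12.1 CPM of Mzb1 and the females at 3.15 to 5.19 CPM, while the 2-month points of the sexes mix.

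The other members did not share this difference at the threshold. Ms4a1 differed by -1.08 (SE 0.52, adjusted p = 0.382), Cd22 by -0.71 (SE 0.38, adjusted p = 0.451) and Jchain by -0.51 (SE 0.36, adjusted p = 0.626), all lower in males, and Cd79b by 0.17 (SE 0.20, adjusted p = 0.829). Among the listed plasma cell genes Irf4, a transcription factor of activated B cells and plasma cells, fell in males relative to females. Its means were 3.22 against 9.20 CPM (log2 difference -1.44, SE 0.19, adjusted p = 0.000211). In wild types of 2 months the means were 3.33 CPM in males and 4.07 CPM in females, with overlap. They were 4.47 against 13.3 CPM in FAD4T of 2 months, and 2.85 against 10.9 CPM in wild types and 2.24 against 8.57 CPM in FAD4T of 8 months. Lta, the lymphotoxin alpha gene, was the 1 of 10 attracting and survival factors called, at 35.1 CPM in males and 24.8 CPM in females (adjusted p = 0.0135). Of 18 other B cell genes and 7 immunoglobulin constant genes, 0 were called by edgeR between the sexes.

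Ordered by group mean, Mzb1 ran from 16.3 ± 2.84 CPM (SD, n = 3) in the young males numbered 4 to 6 down to 4.04 ± 0.875 CPM in FAD4T females of 8 months, and the ranges of neighbouring groups in this order overlapped throughout. Cd79b ran from 15.5 ± 3.08 CPM in the same young males to 7.92 ± 3.42 CPM in FAD4T females of 2 months, again with every neighbouring pair overlapping. Jchain ran from 9.18 ± 9.98 CPM at 18 months to 0.959 ± 0.888 CPM in the young males numbered 4 to 6. Its order had 1 gap, between FAD4T males of 2 months (3.58 ± 1.36 CPM) and wild-type females of 2 months (1.42 ± 0.797 CPM), whose ranges stood apart.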

How the data were processed

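The deposited values are whole counts per gene of paired reads, made by the authors with featureCounts 1.6.0 over exons grouped by gene and with no strand option, on the Ensembl release 88 annotation of GRCm38 and from alignments named for STAR, per the file headers. The submitters' processing notes instead list HISAT2 2.0.4, the build GRCm39, StringTie 1.3.4d, edgeR, DESeq2 and cutadapt 1.9, with no order or role. Libraries were poly(A) selected and made by the dUTP method, per the labels' protocols. Groups came from the sample titles. Wild-type males of 2 months numbered 4 to 6 were set beside the 18-month males, since the design text lists the ageing set apart.

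Counts were tested in R 4.3.3 with edgeR 4.0.16 (TMM, filterByExpr with a minimum count of 10, robust quasi-likelihood fits, prior count 0.125, Benjamini-Hochberg at 0.05). A single fit held 24 libraries, FAD4T and their controls (18493 genes, 16 residual degrees of freedom) and another the 6 ageing libraries (16283 genes, 4 degrees of freedom), giving 15 comparisons. DESeq2 1.42.0 was an alternative, and the code was tested on simulated data. A standard error is the log2 fold change divided by the root of F. No 2 libraries were identical (0 pairs).

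The 9 members, the companion lists and the tests were chosen with earlier results of these data known. The naming rule took all members, at most 4 called genes per companion list by size of change (or genes of high level, as values) and, over the 30 libraries, the genes most like the members by Pearson's r. Eaf2, Irf4, Sdc1, Slamf7 and Ltb in the FAD4T comparisons and Xbp1, Hba-a2, Prob1 and Spata24 beyond that rule, and the split of the sex difference by age with its test, were chosen after values were seen. In males of 8 months, the deviations of same-numbered libraries from their group means correlated at 0.403 to 0.514 for all 3 pairs. Libraries with other numbers gave -0.364 to -0.0969 there. The main tests of these males were unpaired, and the replicate block fitted 1 effect per number for all 8 groups together. In females of 8 months same-numbered libraries gave 0.0363 to 0.565 and others -0.556 to 0.433. Those ranges overlapped, as did the ranges for same and other numbers in the remaining comparisons. Results that need certain other genes are not reported here.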

Additional observations from a re-analysis of the deposited data

How the results depend on the processing

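Counts of members called were the same under DESeq2, its size factors in edgeR and no filter on low counts in all 15 comparisons. With the title number as replicate block, Mzb1 in males against females was 0.91 (adjusted p = 0.0277) and no other member call changed, and no paired fit was made of the ageing set, whose groups share no numbers. At 18 against 2 months, 2 members were called, Cd79b and Mzb1, both falling. In the fit of 30 libraries neither of them was called, and the 1 member called was Jchain, which rose. The count was 0 with young males 1 to 3, 0 with 1 to 6, and 1 to 4 when each library was left out. With young males 1 to 3, Cd79a was 1.01 and Mzb1 0.012, and with 1 to 6, Cd79a was 0.10 and Cd22 0.44, each with the sign turned. Left-out libraries gave Cd22 -2.29 to 0.10. Left-out libraries also gave 0 to 1 members in the FAD4T average and in the average of 8 against 2 months, where Cd79b was -0.014 without the 5 thymocyte-rich libraries. By sex, 1 member (Mzb1) was called within 8 months alone and 0 within 2 months alone. Of 103 member values, 94 were called under no alternative, and 55 changed sign under at least 1. Over all genes, calls moved more: with DESeq2, 102, 293 and 77 in place of 0, 0 and 4 for FAD4T, and 710 in place of 348 by sex, which was 134 without the 5 libraries. Leaving out each library gave 3651 to 5470 genes in place of 5840 at 18 against 2 months, and at 8 against 2 months 30 to 55 in place of 128 in wild-type males and 10 to 211 in place of 47 in wild-type females. The cause was not tested. Low counts limit Cd79a, Cd22, Ms4a1, Pou2af1, Pax5 and Tnfrsf17.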
